A study of Mus musculus with 12 samples.

Results

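Solute carriers (SLC) are membrane proteins that move small molecules, and 147 genes for them were described in BMDM, macrophages obtained by culture of mouse bone marrow cells with the growth factor M-CSF at 20 ng/ml. The genes were chosen by their measured level: in the deposited table of 43280 genes, the symbol had to start with Slc and a digit and the mean over the 12 libraries had to reach 5 CPM, the read count scaled to the size of its library. Of 377 such symbols, 154 reached this level, and 7 of them (Slc7a2, Slc7a11, Slc2a1, Slc16a3, Slc11a1, Slc11a2 and Slc40a1) were left out by name, which left 147. The cells came from wild type (wt) or Treml4-/- mice on a C57BL6 background, of which the labels give no age. They received the vehicle PBS (M0) or lipopolysaccharide (LPS), a cell wall component of Gram-negative bacteria, at 100 ng/ml for 8 h (M1-8 h) or 12 h (M1-12 h). Each of the 6 conditions had 2 biological replicates. Neither the labels nor the methods say whether replicates came from separate mice, so p-values measure the spread between these libraries only.

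Transporters of this superfamily decide which nutrients, metals and metabolites enter and leave a cell and its organelles. Some exchange one solute for another, some couple uptake to a gradient of sodium or protons, and the SLC25 family serves the inner mitochondrial membrane. In macrophages, carriers of the plasma membrane supply amino acids, glucose and nucleosides, while carriers of the lysosome return the products of digested cargo to the cytosol. Zinc and copper carriers also set how much of these metals reaches engulfed microbes. The number after Slc names the family, and members of a family often share a kind of substrate, by which the genes were grouped here.

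Between 48008751 and 58500792 reads were counted per library, and the 147 genes took 1.18% to 1.37% of them. Treml4, the deleted gene, had 198 to 663 reads in wt and 0 in all 6 Treml4-/- libraries. Summed CPM of 8 macrophage markers were 18940 to 25840 at M0 and 8415 to 11660 after LPS, those of 5 genes induced by LPS 41.2 to 58.1 at M0 and 17720 to 22370 after LPS, those of 7 genes of granulocytes and their precursors ranged from 37.4 to 123, those of 6 dendritic cell markers from 0.748 to 9.25 and those of 5 stromal markers from 0.337 to 2.39, and no listed marker of T, NK, B, mast or erythroid cells reached 1 CPM. The granulocyte sum was 37.4 and 103 in wt against 96.9 and 123 in Treml4-/- libraries at M0, 60.1 to 64.7 against 74.1 to 94.9 at 8 h, and 44.2 to 54.6 against 51.0 to 62.8 at 12 h, and its part in the genotype values given further on was not tested. The same holds for the lower macrophage marker sum after LPS and the values against M0. The markers in that sum did not move together. Csf1r, Cd68 and Lyz2 were lower in every LPS library than in every M0 library. Itgam, Mertk and Fcgr1 were higher, and the ranges of Cd14 and Mrc1 overlapped. In bulk RNA, fewer cells expressing a gene and less of its RNA per cell cannot be told apart.

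Per kb of exon, Slc15a3 (202), Slc6a6 (189.9), Slc2a6 (159), Slc3a2 (153), Slc28a2 (139.6), Slc25a5 (139), Slc48a1 (129), Slc7a8 (111), Slc39a1 (111) and Slc31a1 (104) had the highest mean CPM over the 12 libraries. They carry peptides and histidine (Slc15a3), taurine (Slc6a6), hexoses (Slc2a6), amino acids (Slc3a2 with Slc7a8), purine nucleosides (Slc28a2), mitochondrial ADP and ATP (Slc25a5), heme (Slc48a1), zinc (Slc39a1) and copper (Slc31a1). These levels chose the genes and are given as a description. Slc24a3, Slc35d1 and Slc25a23 lay just above the minimum at 5.08, 5.13 and 5.18 CPM, and Slc19a1, Slc35a1 and Slc25a43 just below it at 4.95, 4.74 and 4.52 CPM. All 147 genes passed the filter of the test, and 112 of them were at 5 CPM or more in each of the 6 conditions. Averaged over the genotypes, 4 genes were under 5 CPM at M0, 22 at 8 h and 27 at 12 h. A gene that entered only through the condition in which it was high had to differ. This applies to 3 genes under 5 CPM at M0 and over it at both LPS times (Slc4a11, Slc6a19 and Slc24a3). It also applies to 17 genes with the opposite order, among them Slc46a3, and to Slc15a2. The mean of Slc15a2 was 5.94 CPM over all libraries and 2.35 CPM without Treml4-/- M1-8 h replicate 2. Slc36a2 and Slc9a9, under 5 CPM at 12 h only, are outside the 17, but their falls can follow in part from the choice as well. So can falls of other weakly expressed genes, among them Slc46a1, Slc2a3 and Slc6a12, with means of 7.95, 6.69 and 7.13 CPM. All of these genes are kept in the counts below. Exons of 43 of the 147 genes overlap those of another annotated gene, 38 of them on the opposite strand, among them Slc15a3, Slc43a2, Slc37a2, Slc30a4, Slc33a1 and Slc48a1. Whether counting used strand is not given in the sources used here, so reads of such pairs cannot be told apart.

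LPS changed most of the 147 carriers at library size, as it did most of the genes tested. In each of 3 scalings more carriers were called lower than higher at both times, to be read beside the counts over all genes. Changes were taken as log2 fold changes of CPM + 1, a scale that understates weakly expressed genes, and a gene was called when the limma test over all 12 libraries and 12086 genes gave a p under 0.05 after Benjamini-Hochberg adjustment, with a change of 1.4-fold or more. At 8 h, 23 of the 147 were called higher and 96 lower than at M0, beside 17.1% and 59.8% of all genes tested. At 12 h, 22 were higher and 93 lower, beside 16.3% and 60.3%. The median log2 fold change of the carriers was -0.87 at 8 h and -0.97 at 12 h, against -0.72 and -0.76 over all genes. The size of this excess depends on the scaling of the libraries. When CPM were rescaled by the median of ratios, the median of all genes was -0.04 at both times. The carriers then split into 43 higher and 58 lower at 8 h and 47 and 52 at 12 h. Of all 12086 genes, 3762 were higher and 3791 lower at 8 h, and 3947 and 3942 at 12 h. Quantile normalization gave medians of -0.13 and -0.12, with 37 carriers higher and 65 lower at 8 h and 42 and 62 at 12 h. Of all genes, 3362 were then higher and 4342 lower at 8 h, and 3594 and 4338 at 12 h.

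For this reason, rose and fell are used below of genes called in the same direction under library size, median of ratios and quantile scaling alike, and each log2 fold change can be read against the medians of all genes given above. By that standard 22 carriers rose (16.9% of all genes did) and 54 fell (28.2%) at 8 h, and 22 rose (16.1%) and 46 fell (28.9%) at 12 h. Over all genes at 8 h it kept 2044 of 2070 genes called higher at library size but 3414 of 7225 called lower. Counts of rises thus stay close to those of library size, and leave out genes higher only under the other scalings. Class counts below are to be read beside these shares of all genes, and none includes the 7 genes left out by name. No carrier was called in opposite directions by 2 scalings at 8 h, and 1 was at 12 h, namely Slc6a6 (0.72 with the median of ratios and -0.63 with quantile normalization). At 8 h the direction of 37 carriers flipped in at least 1 scaling, among them 21 that were called at library size. Both LPS times share the M0 libraries, so their values are given side by side and are not independent. Where libraries of a gene are said not to overlap, this largely follows from its choice for a large change. At each LPS time 89.7% of all genes tested had an unadjusted p under 0.05 (limma). The share of all genes without overlap was not counted. Slc1a5, Slc2a8, Slc2a9, Slc4a1ap, Slc7a1, Slc7a5, Slc7a6, Slc7a7, Slc8b1, Slc15a4, Slc23a2, Slc25a1, Slc25a4, Slc25a10, Slc25a11, Slc30a1, Slc30a5, Slc30a7, Slc35f5, Slc37a4, Slc38a1, Slc38a2, Slc38a9, Slc39a14 and Slc44a1 were named after their values were seen.

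**Figure D1:**
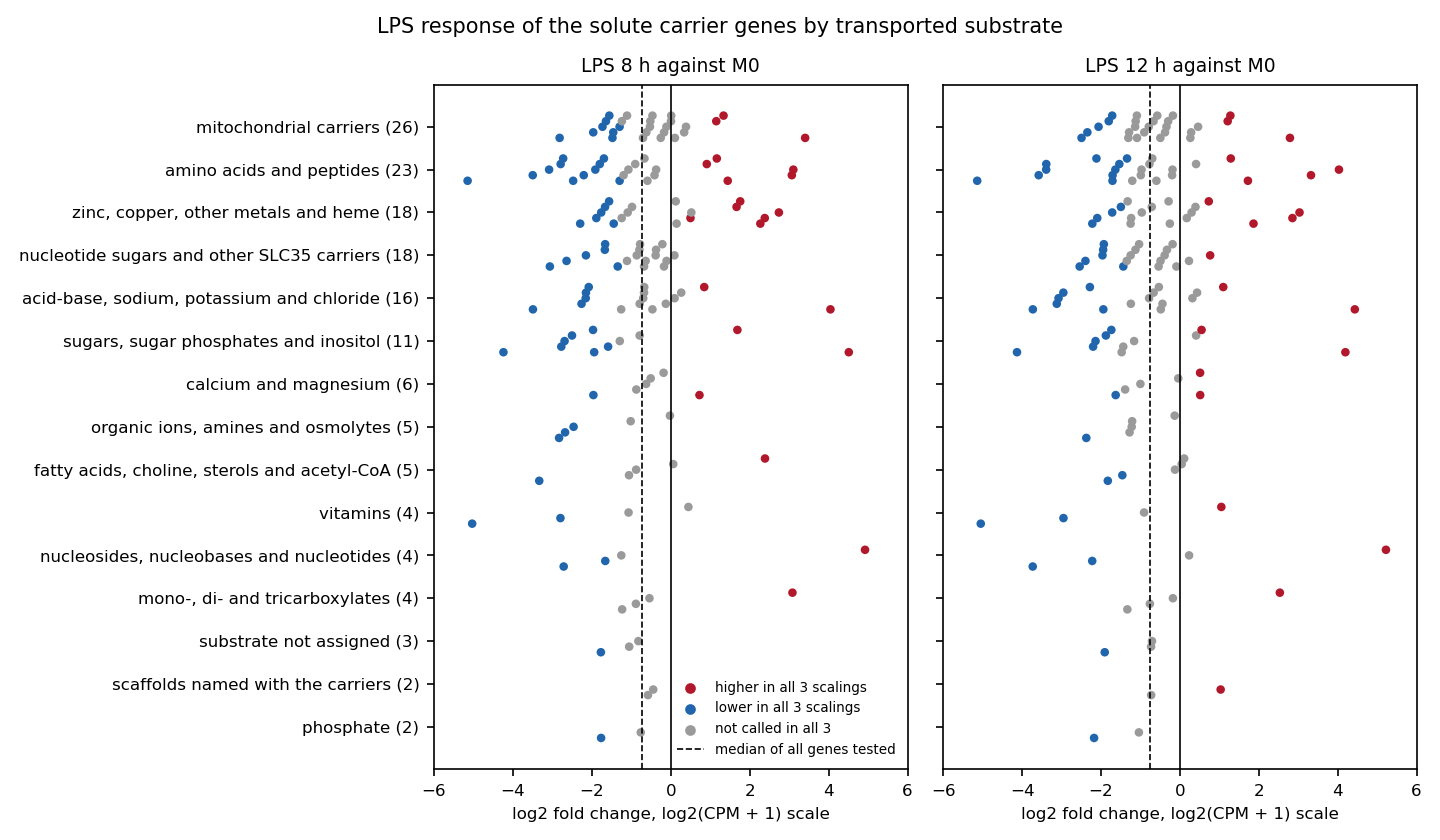
Each point is 1 of the 147 solute carrier genes, by substrate class (rows, number of genes in brackets) and log2 fold change of LPS against M0 on the log2(CPM + 1) scale (horizontal axis), at 8 h (left) and 12 h (right). Red and blue mark genes that rose or fell in all 3 scalings, and the grey points include those whose direction flips with the scaling. The dashed line is the median of all genes tested, at -0.72 and -0.76, and the points reach from -5.15 (Slc43a2) to 4.92 (Slc28a2) at 8 h.

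Single amino acid and peptide carriers moved far in both directions. Of 23 genes, 5 rose and 11 fell at 8 h, beside 16.9% and 28.2% of all genes. At 12 h 4 rose and 10 fell, beside 16.1% and 28.9%. Slc15a3, the lysosomal peptide and histidine transporter PHT2, had the highest level per kb of all the carriers. Slc15a3 was measured at 145 and 225 in wt and 164 and 152 in Treml4-/- libraries at M0, 1613 and 1549 in wt and 1388 and 1313 in Treml4-/- libraries at 8 h, and 1767 and 1709 in wt and 1630.3 and 1685 in Treml4-/- libraries at 12 h, in CPM. Every LPS library lay above every M0 library, with a log2 fold change of 3.11 ± 0.11 (SE) at 8 h (adjusted p = 1.92e-10 with limma, 3.83 relative to the median of all genes). Its close relative Slc15a4 (PHT1), a carrier of the same organelle, fell, with -2.21 at 8 h and -1.54 at 12 h. Slc6a19, a sodium-coupled importer of neutral amino acids best known from gut and kidney, was under 5 CPM at M0 and rose by 3.07 at 8 h and 4.03 at 12 h.

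The deepest fall of all the carriers at 8 h was that of Slc43a2 (LAT4), a facilitator for leucine and other large neutral amino acids, on chr11:75531694-75577575 (forward strand). At M0, Slc43a2 was at 1209 and 1333 in wt and 1233 and 1195 in Treml4-/- libraries, against 32.4 and 30.7 in wt and 38.2 and 35.3 in Treml4-/- libraries at 8 h and 103 and 116 in wt and 129.9 and 123 in Treml4-/- libraries at 12 h, in CPM. The groups did not overlap, and the log2 fold change was -5.15 ± 0.06 (SE) at 8 h (adjusted p = 5.54e-14, 35.5-fold lower) and -3.39 ± 0.06 (SE) at 12 h. Slc36a2 and Slc36a1, proton-coupled carriers of small amino acids, fell too. In CPM, Slc36a2 stood at 80.4 and 64.0 in wt and 79.9 and 87.2 in Treml4-/- libraries at M0, at 6.26 and 5.05 in wt and 6.34 and 6.18 in Treml4-/- libraries at 8 h, and at 1.27 and 0.893 in wt and 1.46 and 1.34 in Treml4-/- libraries at 12 h. Slc36a2 was lower at 12 h than at 8 h in every library, with -3.50 at 8 h and -5.14 at 12 h. It reached the minimum of 5 CPM mainly through M0, so its fall against M0 followed in part from its choice. Slc36a1, which exports amino acids from the lysosome, had -3.08 at 8 h and -1.71 at 12 h. Slc38a2 (SNAT2) and Slc1a5 (ASCT2), which take up glutamine and other neutral amino acids, fell by 2.79 and 2.73 at 8 h on the log2 scale. Slc38a1 (SNAT1) fell at 8 h as well (-1.30), the arginine importer Slc7a1 (CAT1) fell at 12 h (-1.71), and Slc38a9, the arginine sensor of lysosomes, was -0.37 at 8 h with a positive sign under both other scalings. Slc15a2, a peptide importer of the plasma membrane, was called higher at 8 h (1.44, SE 0.54), but 1 library decided its value. Without Treml4-/- M1-8 h replicate 2 it was 0.76 and no longer called, and the call was also lost without wt M0 replicate 2, wt M1-8 h replicate 1 or Treml4-/- M0 replicate 1.

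Within the heteromeric amino acid exchangers, the heavy chain and 1 light chain rose while no other light chain rose in all 3 scalings. Slc3a2 (CD98hc) brings several light chains of the SLC7 family to the plasma membrane, and each light chain sets the substrates. Slc3a2 was at 79.0 and 89.1 in wt and 88.9 and 86.3 in Treml4-/- libraries at M0, 177 and 165 in wt and 160.2 and 145 in Treml4-/- libraries at 8 h, and 216 and 207 in wt and 208 and 209.6 in Treml4-/- libraries at 12 h, in CPM per kb. The light chain Slc7a8 (LAT2, neutral amino acids) was at 54.2 and 51.4 in wt and 48.9 and 49.0 in Treml4-/- libraries at M0, 128 and 105 in wt and 114 and 113 in Treml4-/- libraries at 8 h, and 179 and 156 in wt and 173 and 166 in Treml4-/- libraries at 12 h, in CPM per kb. Both chains were higher at 8 h and 12 h than at M0 in every library, with log2 fold changes of 0.91 at 8 h and 1.29 at 12 h for Slc3a2 and 1.17 at 8 h and 1.72 at 12 h for Slc7a8. Slc7a5 (LAT1, large neutral amino acids) went the other way and was at 4.38 and 2.66 in wt and 3.79 and 3.85 in Treml4-/- libraries at M0, 1.62 and 1.39 in wt and 1.71 and 1.60 in Treml4-/- libraries at 8 h, and 0.636 and 0.707 in wt and 0.534 and 0.641 in Treml4-/- libraries at 12 h, in CPM per kb. It fell at 12 h (-2.12), while its value of -1.07 at 8 h was not called in all 3 scalings. Slc7a6 (y+LAT2, cationic and neutral amino acids) fell at both times, with -2.47 at 8 h and -3.39 at 12 h. Slc7a7 (y+LAT1) had -0.41 at 8 h and -0.70 at 12 h, with positive signs under both other scalings at both times, and it was called higher at 8 h with quantile normalization only (0.49) and lower at 12 h at library size only. The difference in response between Slc7a8 and Slc7a5 was not tested as such, and the cystine light chain Slc7a11 was left out by name.

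**Figure D2:**
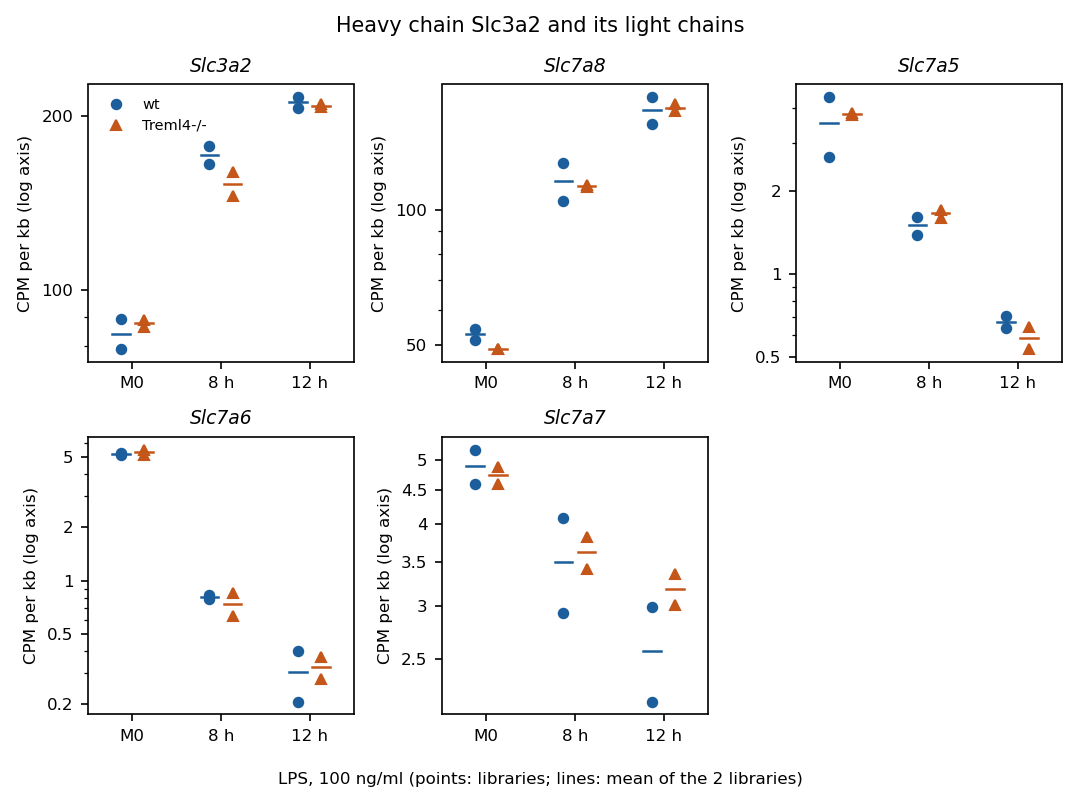
CPM per kb of exon (vertical log axis) of the heavy chain Slc3a2 and 4 light chains at M0, 8 h and 12 h of LPS (horizontal axis), with 1 point per library, circles for wt, triangles for Treml4-/- and a line at the mean of the 2 libraries. Slc3a2 and Slc7a8 are higher in all 8 LPS libraries than at M0, and Slc7a6 is lower in all 8. The direction of Slc7a7 flips with the scaling at both times.

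The largest rise was that of Slc28a2 (CNT2), a sodium-coupled importer of purine nucleosides, on chr2:122426477-122461137 (forward strand). For Slc28a2, the libraries gave 25.9 and 23.1 in wt and 24.2 and 25.6 in Treml4-/- libraries at M0, 746 and 729 in wt and 837 and 804 in Treml4-/- libraries at 8 h, and 974 and 1014 in wt and 895 and 949 in Treml4-/- libraries at 12 h, in CPM. Its lowest LPS library was far above its highest M0 library, and the log2 fold change was 4.92 ± 0.06 (SE) at 8 h (adjusted p = 3.77e-14, 30.3-fold, 5.65 relative to the median of all genes) and 5.22 ± 0.06 (SE) at 12 h. The 2 carriers of the same class that fell work by facilitated diffusion. Slc29a1 (ENT1), a nucleoside carrier of the plasma membrane, had -2.71 at 8 h and -3.73 at 12 h, and Slc43a3, which carries purine nucleobases, had -1.66 at 8 h and -2.22 at 12 h. Slc29a3 (ENT3), which lets nucleosides out of lysosomes, had -1.25 at 8 h and 0.23 at 12 h, and neither value was called in all 3 scalings.

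Among 11 carriers of sugars and sugar phosphates, 2 rose and 7 fell at 8 h, beside 16.9% and 28.2% of all genes. At 12 h 2 rose and 5 fell, beside 16.1% and 28.9%. Slc2a1 was left out by name. Slc2a6 (GLUT6), a hexose carrier of lysosomal membranes, rose most, on chr2:27021363-27027998 (reverse strand). Slc2a6 was found at 34.6 and 46.5 in wt and 32.8 and 28.4 in Treml4-/- libraries at M0, 874 and 1072 in wt and 704 and 688 in Treml4-/- libraries at 8 h, and 634 and 840.0 in wt and 570.0 and 619 in Treml4-/- libraries at 12 h, each in CPM. All LPS libraries exceeded all M0 libraries, with 4.51 ± 0.11 (SE) at 8 h (adjusted p = 1.44e-11) and 4.19 ± 0.11 (SE) at 12 h. Slc37a2, a sugar phosphate exchanger of the endoplasmic reticulum that macrophages express strongly, was the deepest fall of the class. Slc37a2 was measured at 645 and 737 in wt and 704 and 684 in Treml4-/- libraries at M0, 37.7 and 30.5 in wt and 41.8 and 33.5 in Treml4-/- libraries at 8 h, and 35.4 and 27.5 in wt and 49.9 and 45.6 in Treml4-/- libraries at 12 h, in CPM. The LPS libraries were far below all M0 libraries, with -4.24 ± 0.10 (SE) at 8 h and -4.13 ± 0.10 (SE) at 12 h. The glucose carriers Slc2a3 (GLUT3, -2.77 at 8 h) and Slc2a8 (GLUT8, -2.50) and the sugar carrier relative Slc45a4 (-2.69) fell, as did Slc2a9, which carries urate (-1.97), and Slc17a5 (sialin), which lets sialic acid out of lysosomes (-1.94). Slc37a4, which brings glucose 6-phosphate into the endoplasmic reticulum, was -0.79 at 8 h, with a positive sign under quantile normalization (0.18), and rose by 0.55 at 12 h.

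Of the 4 carboxylate carriers, Slc16a1 (MCT1), which moves lactate and pyruvate with protons, rose and none fell. At M0, Slc16a1 was at 8.29 and 6.31 in wt and 8.01 and 7.76 in Treml4-/- libraries, against 74.0 and 71.9 in wt and 71.7 and 68.7 in Treml4-/- libraries at 8 h and 61.3 and 49.4 in wt and 42.6 and 42.9 in Treml4-/- libraries at 12 h, in CPM. The LPS and M0 libraries did not overlap, and the log2 fold change was 3.08 ± 0.09 (SE) at 8 h and 2.53 ± 0.09 (SE) at 12 h. Slc16a13 (-1.23 at 8 h), Slc16a7 (MCT2, -0.88) and the dicarboxylate importer Slc13a3 (-0.54) were called lower at library size but not in all 3 scalings. The sign of Slc16a7 turned under quantile normalization (0.10) and that of Slc13a3 under both other scalings (0.21 and 0.31).

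Of the classes with over 10 genes, the metal and heme carriers had the largest share of rises at 8 h, a difference that was not tested. Of 18 genes, 6 rose and 6 fell at 8 h, beside 16.9% and 28.2% of all genes. At 12 h 4 rose and 4 fell, beside 16.1% and 28.9%. The copper importer Slc31a1 (CTR1) and its relative Slc31a2 (CTR2), which acts on copper in endosomes and lysosomes, rose together. In CPM, Slc31a1 stood at 93.2 and 73.9 in wt and 83.0 and 82.7 in Treml4-/- libraries at M0, at 550.1 and 511 in wt and 596 and 585 in Treml4-/- libraries at 8 h, and at 701 and 595 in wt and 768 and 688 in Treml4-/- libraries at 12 h. For Slc31a2, the libraries gave 45.1 and 44.0 in wt and 36.9 and 41.1 in Treml4-/- libraries at M0, 205 and 241 in wt and 214 and 227 in Treml4-/- libraries at 8 h, and 286 and 338 in wt and 297 and 309 in Treml4-/- libraries at 12 h, in CPM. For both genes every LPS library was above every M0 library, with 2.74 at 8 h and 3.03 at 12 h for Slc31a1 and 2.38 at 8 h and 2.85 at 12 h for Slc31a2. Slc30a1 (ZnT1), the zinc exporter of the plasma membrane, rose as well, with 1.76 at 8 h and 1.87 at 12 h.

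Slc30a4 (ZnT4), which loads zinc into vesicles, was highest at 8 h. Slc30a4 was found at 14.2 and 13.3 in wt and 14.3 and 18.7 in Treml4-/- libraries at M0, 52.4 and 68.7 in wt and 86.3 and 108 in Treml4-/- libraries at 8 h, and 11.2 and 9.67 in wt and 15.0 and 13.1 in Treml4-/- libraries at 12 h, each in CPM. The 8 h libraries were above all others. The log2 fold change against M0 was 2.27 ± 0.12 (SE) at 8 h and -0.29 ± 0.12 (SE) at 12 h, of which the latter turned positive and was called higher under both other scalings (0.50 and 0.66), and the difference between the times was -2.56 (adjusted p = 4.35e-08), the largest fall from 8 h to 12 h of all the carriers. Slc39a14 (ZIP14), an importer of zinc and iron, had 1.67 at 8 h and 0.73 at 12 h, and Slc30a7 (ZnT7), which serves the Golgi apparatus, had 0.50 at 8 h and 0.17 at 12 h, of which the 12 h value was called higher under both other scalings only (0.74 with quantile normalization). Slc39a10 (ZIP10, -1.76 at 8 h) and Slc39a13 (ZIP13, -1.89), which bring zinc to the cytosol, and Slc30a5 (ZnT5, -1.67), which loads the secretory pathway, fell. Slc48a1 (HRG1), which moves heme out of phagolysosomes, also fell at 8 h. Slc48a1 was measured at 623 and 697 in wt and 679.6 and 646 in Treml4-/- libraries at M0, 138 and 110.5 in wt and 150.4 and 139.7 in Treml4-/- libraries at 8 h, and 249 and 231 in wt and 294 and 285 in Treml4-/- libraries at 12 h, in CPM. The 8 h libraries were the lowest, with -2.30 ± 0.08 (SE), and at 12 h the value was -1.32 and not called in all 3 scalings. Slc39a1 (ZIP1) was 0.52 at 8 h and lost its call under quantile normalization (0.40).

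In the mitochondrial carrier family, 3 of 26 genes rose and 8 fell at 8 h, beside 16.9% and 28.2% of all genes. At 12 h 3 rose and 5 fell, beside 16.1% and 28.9%. Carriers of glutamate were among the rises. Slc25a22 (GC1) takes glutamate into the matrix. At M0, Slc25a22 was at 28.1 and 29.2 in wt and 27.1 and 27.0 in Treml4-/- libraries, against 318 and 320.5 in wt and 284 and 296 in Treml4-/- libraries at 8 h and 200.2 and 229 in wt and 177 and 189.9 in Treml4-/- libraries at 12 h, in CPM. The groups did not overlap and the log2 fold change was 3.41 ± 0.06 (SE) at 8 h (adjusted p = 7.53e-13) and 2.79 ± 0.06 (SE) at 12 h. Slc25a12 (aralar) exchanges aspartate for glutamate in the malate-aspartate shuttle and had 1.15 at 8 h and 1.28 at 12 h, while Slc25a13 (citrin), which runs the same exchange, fell, with -1.73 at 8 h and -2.34 at 12 h. In CPM, Slc25a12 stood at 81.3 and 68.0 in wt and 73.0 and 74.5 in Treml4-/- libraries at M0, at 174 and 167 in wt and 164 and 158 in Treml4-/- libraries at 8 h, and at 183 and 198 in wt and 169 and 176 in Treml4-/- libraries at 12 h. For Slc25a13, the libraries gave 48.9 and 45.1 in wt and 48.0 and 46.5 in Treml4-/- libraries at M0, 13.3 and 14.8 in wt and 15.0 and 11.3 in Treml4-/- libraries at 8 h, and 7.75 and 8.55 in wt and 8.94 and 8.68 in Treml4-/- libraries at 12 h, in CPM. In all 8 LPS libraries Slc25a12 was above and Slc25a13 below its M0 libraries, and the difference between the exchangers was not tested. Slc25a25, a carrier of ATP-Mg and phosphate that calcium activates, rose at 8 h (1.34) and was -0.50 at 12 h, with a positive sign under both other scalings. Slc25a37 (mitoferrin 1), the iron importer of mitochondria, was 0.39 at 8 h and rose by 1.21 at 12 h. Slc25a30 (-2.82 at 8 h) and Slc25a39, which is needed for mitochondrial glutathione (-1.96), fell. The dicarboxylate carriers Slc25a10 (-1.46) and Slc25a11 (-1.30, 2-oxoglutarate) fell at 8 h, while the citrate carrier Slc25a1 was -0.52 and turned positive (0.27) under the median of ratios. The ADP/ATP carrier Slc25a5 was -0.46 at 8 h, a value that turned positive (0.33) under the median of ratios. Slc25a5 has many processed pseudogenes that can share its reads, so its value is uncertain, as is that of its paralog Slc25a4 (-1.11 at 8 h and -1.80 at 12 h), which fell at 12 h.

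Among 16 carriers of acid-base equivalents, sodium, potassium and chloride, 2 rose and 5 fell at 8 h, beside 16.9% and 28.2% of all genes. At 12 h 2 rose and 6 fell, beside 16.1% and 28.9%. Slc4a11, a member of the bicarbonate carrier family that moves protons or hydroxide, was nearly silent at M0. Slc4a11 was found at 0.154 and 0.236 in wt and 0.143 and 0.299 in Treml4-/- libraries at M0, 21.1 and 20.5 in wt and 16.0 and 18.6 in Treml4-/- libraries at 8 h, and 27.5 and 38.8 in wt and 19.4 and 18.9 in Treml4-/- libraries at 12 h, each in CPM. All LPS libraries were far above all M0 libraries, with 4.05 ± 0.11 (SE) at 8 h and 4.43 ± 0.11 (SE) at 12 h, and it reached the minimum of 5 CPM only through the LPS libraries. Slc12a9, of the cation-chloride family, rose by 0.85 and 1.10. Slc4a7 (NBCn1), a sodium bicarbonate importer, fell further with time, with -2.26 at 8 h and -3.73 at 12 h. Slc26a11, an anion carrier of lysosomes, had -3.49 at 8 h and -2.28 at 12 h, and the organellar sodium/proton exchanger Slc9a7 had -2.16 at 8 h and -3.08 at 12 h. Of 6 calcium and magnesium carriers, the weakly expressed sodium/calcium exchanger Slc24a3 rose at 8 h (0.73) and the magnesium carrier Slc41a3 fell (-1.96), and at 12 h 2 rose and 1 fell. Slc8b1 (NCLX), which lets calcium out of mitochondria, was -0.18 at 8 h (0.61 with the median of ratios) and rose by 0.51 at 12 h. Slc8a1 (-0.87) and Slc41a1 (-0.62) were called lower at library size but not in all 3 scalings, and Slc41a1 turned positive under both other scalings.

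Among the 5 carriers of fatty acids, choline and acetyl-CoA, Slc33a1 rose and Slc27a1 fell at 8 h. Slc33a1 imports acetyl-CoA into the endoplasmic reticulum for the acetylation of proteins. Slc33a1 was measured at 29.9 and 24.2 in wt and 25.0 and 26.4 in Treml4-/- libraries at M0, 138 and 142 in wt and 141 and 146 in Treml4-/- libraries at 8 h, and 26.3 and 30.8 in wt and 27.1 and 24.7 in Treml4-/- libraries at 12 h, in CPM. The 8 h libraries stood apart from all others, with 2.39 ± 0.08 (SE) at 8 h and 0.04 ± 0.08 (SE) at 12 h, and the 12 h value was called higher under both other scalings (0.86 and 0.80). Slc27a1 (FATP1), which takes up long-chain fatty acids, was lowest at 8 h. At M0, Slc27a1 was at 301 and 293 in wt and 314 and 305 in Treml4-/- libraries, against 28.9 and 22.4 in wt and 33.0 and 34.0 in Treml4-/- libraries at 8 h and 74.5 and 63.6 in wt and 101 and 108 in Treml4-/- libraries at 12 h, in CPM. Its log2 fold change was -3.33 ± 0.08 (SE) at 8 h and -1.83 ± 0.08 (SE) at 12 h. The choline carrier Slc44a2 (-1.06 at 8 h) and Slc27a4 (FATP4, -0.88) were lower at library size but not in all 3 scalings, and the choline carrier Slc44a1 was 0.06 at 8 h and fell at 12 h (-1.46). Of 5 organic ion carriers, 3 fell at 8 h: Slc22a4 (OCTN1, ergothioneine, -2.83), the creatine importer Slc6a8 (-2.46) and the betaine importer Slc6a12 (-2.68). The taurine importer Slc6a6 was next to Slc15a3 in its level per kb. In CPM, Slc6a6 stood at 1668 and 1777 in wt and 1589.5 and 1609 in Treml4-/- libraries at M0, at 1688 and 1866 in wt and 1503 and 1507 in Treml4-/- libraries at 8 h, and at 1506 and 1684 in wt and 1431 and 1444 in Treml4-/- libraries at 12 h. Its LPS and M0 libraries overlapped at 8 h (-0.02, SE 0.06), but the median of ratios gave 0.78 and called it higher, so its direction depends on the scaling.

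Another steep fall was that of Slc46a3, on chr5:147878437-147894815 (reverse strand). This lysosomal relative of the folate importer Slc46a1 was grouped with the vitamin carriers by its family, not by a vitamin it is shown to carry here. For Slc46a3, the libraries gave 65.6 and 58.7 in wt and 58.9 and 57.1 in Treml4-/- libraries at M0, 0.706 and 0.724 in wt and 1.08 and 0.97 in Treml4-/- libraries at 8 h, and 0.691 and 0.715 in wt and 0.833 and 1.18 in Treml4-/- libraries at 12 h, in CPM. All LPS libraries were at or near 1 CPM, with -5.03 ± 0.08 (SE) at 8 h (adjusted p = 5.91e-13) and -5.05 ± 0.08 (SE) at 12 h. Slc46a3 reached the minimum of 5 CPM only through the M0 libraries, so a difference followed from its choice. Slc46a1 (PCFT) fell too (-2.80 at 8 h and -2.95 at 12 h). Its mean over all libraries was 7.95 CPM, so this fall can also follow from its choice. The riboflavin carrier Slc52a2 was -1.07 at 8 h without a call in all 3 scalings. Slc23a2 (SVCT2), the vitamin C importer, was 0.45 at 8 h and rose by 1.05 at 12 h. Many of the 18 SLC35 genes bring nucleotide sugars into the Golgi apparatus and endoplasmic reticulum for glycosylation. At 8 h none of them rose in all 3 scalings and 6 fell, beside 16.9% and 28.2% of all genes. The direction of 9 flipped with the scaling, and Slc35a3 and Slc35f5 were called higher under both other scalings. Slc35e4 (-3.06), Slc35c2 (-2.64) and the GDP-fucose carrier Slc35c1 (-2.15) fell most. At 12 h 1 rose (Slc35f5, 0.77) and 6 fell, beside 16.1% and 28.9% of all genes.

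Of the remaining genes, the phosphate importer Slc20a2 fell (-1.77 at 8 h), and Slc20a1 was -0.76 with a sign that turned under the median of ratios. Slc9a3r1 and Slc4a1ap carry the name of a carrier but encode proteins that bind carriers. Slc9a3r1 (NHERF1), a scaffold for membrane proteins, was -0.58 at 8 h with a positive sign under the median of ratios (0.21), and rose by 1.03 at 12 h. Slc7a6os is named after its neighbour Slc7a6 and is not known to be a carrier, and it fell (-1.77 at 8 h). Slc10a7 (-1.05) and Slc10a3 (-0.82), with no assigned substrate, lost the call in another scaling, and Slc10a3 turned positive under quantile normalization (0.07).

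**Figure D3:**
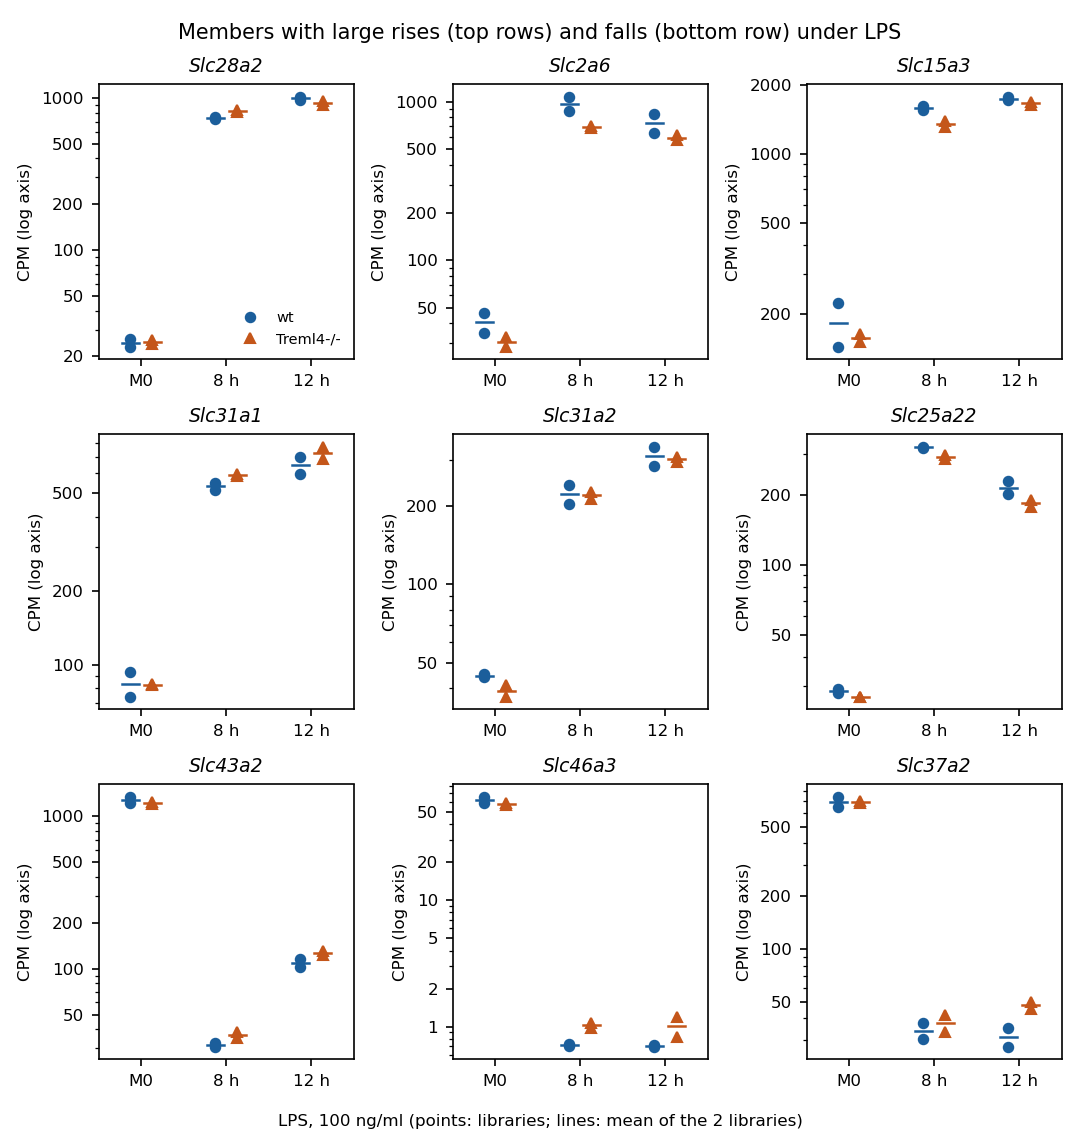
CPM (vertical log axis) of 6 genes with large rises and, in the bottom row, 3 with large falls at M0, 8 h and 12 h of LPS (horizontal axis), with 1 point per library, circles for wt, triangles for Treml4-/- and a line at the mean of the 2 libraries. The 9 genes were chosen for large changes, and in each the M0 and LPS libraries do not overlap. Both genotypes move the same way, for Slc28a2 from 23.1 to 25.9 CPM at M0 to 729 or more at 8 h.

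Sequence around the start sites of the genes that rose was read from RefSeq windows of GRCm38.p6, which reach from 250 bases before to 50 bases after a start and covered 19 of the 22 genes that rose at 8 h and 113 of the 147. Among 6 motifs searched on both strands, TCACGTG, the E-box of the lysosomal CLEAR element that the factors TFEB and TFE3 bind, was found in 4 of 19 genes that rose at 8 h (21.1%), in 2 of 42 that fell (4.76%), in 13 of 113 carriers (11.5%), in 621 of 8702 genes tested (7.14%) and in 1160 of 27025 genes with a window (4.29%). These shares are a description over few genes, and a match is not evidence of binding. The 4 genes are shown with the E-box in capitals, written 5′ to 3′ along the strand of the gene.
Slc16a1: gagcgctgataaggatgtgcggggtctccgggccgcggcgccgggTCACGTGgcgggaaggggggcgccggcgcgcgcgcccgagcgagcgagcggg
Slc31a2: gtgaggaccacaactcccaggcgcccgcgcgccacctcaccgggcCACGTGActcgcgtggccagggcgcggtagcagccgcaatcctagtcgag
Slc33a1: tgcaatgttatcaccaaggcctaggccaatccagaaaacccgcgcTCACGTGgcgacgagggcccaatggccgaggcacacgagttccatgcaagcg
Slc37a3: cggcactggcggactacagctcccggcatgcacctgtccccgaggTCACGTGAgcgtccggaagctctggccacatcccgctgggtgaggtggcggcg
The stretches lie at chr3:104638418-104638514 (forward strand) for Slc16a1, chr4:62286384-62286478 (forward strand) for Slc31a2, chr3:63964808-63964904 (reverse strand) for Slc33a1 and chr6:39377669-39377766 (reverse strand) for Slc37a3, and the first capital is at position -201, 1, -126 and -14 from the start site. In Slc31a2 the capitals read the motif on the other strand, and in Slc37a3 they hold it on both strands with an overlap. Slc37a3, a lysosomal membrane protein of the sugar phosphate family, rose at 8 h with 1.69 and was 0.41 at 12 h.

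The other 5 motifs are given for completeness, as they are bound by factors active in LPS-treated or stressed cells. The NF-kB consensus was in 1 of 19 genes that rose (5.26%) and in 7 of 42 that fell (16.7%), against 6.44% of genes tested. TGATGNAA, bound by ATF4, was in 0 (2.87% of genes tested), the core hypoxia element ACGTGC, which can overlap an E-box, in 1 (9.62%), and the metal element TGCNCNC in 13 (63.3%). The interferon-stimulated response element was in 1 (2.72%), namely in the window of Slc25a22 at chr7:141435400-141435501 (reverse strand), from position -81, shown with the element in capitals because this gene had the steepest rise of the mitochondrial carriers.
Slc25a22: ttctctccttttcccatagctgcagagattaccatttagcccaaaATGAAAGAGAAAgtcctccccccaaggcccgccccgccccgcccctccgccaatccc
Slc25a22 has 3 such windows, of which this is 1.

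From 8 h to 12 h of LPS, 30 carriers were called higher and 29 lower, beside 13.5% and 18.7% of all genes tested. In all 3 scalings 30 rose (13.4% of all genes) and 25 fell (15.2%), and the median over the carriers was 0.09 against -0.06 over all genes. The largest rises were those of Slc43a2 (1.76, SE 0.06), Slc9a3r1 (1.61, SE 0.08), Slc22a4 (1.55, SE 0.09), Slc27a1 (1.51, SE 0.08) and Slc29a3 (1.49, SE 0.07). At 12 h, Slc43a2, Slc22a4 and Slc27a1 were still below their M0 libraries in every library. The value of Slc22a4 against M0 (-1.28) was not called with the median of ratios (-0.44). Slc29a3 was at 0.23, SE 0.07 against M0 at library size and called higher under both other scalings (1.07 and 0.53). Slc9a3r1 rose above its M0 libraries. Slc29a3 was found at 93.2 and 91.9 in wt and 91.0 and 86.9 in Treml4-/- libraries at M0, 37.7 and 34.3 in wt and 39.4 and 38.6 in Treml4-/- libraries at 8 h, and 109 and 90.8 in wt and 113 and 116 in Treml4-/- libraries at 12 h, each in CPM. Slc9a3r1 was measured at 122 and 124 in wt and 125 and 122 in Treml4-/- libraries at M0, 91.5 and 80.6 in wt and 83.0 and 74.2 in Treml4-/- libraries at 8 h, and 275 and 216 in wt and 255 and 269 in Treml4-/- libraries at 12 h, in CPM. The largest falls were those of Slc30a4 (-2.56, SE 0.12), Slc33a1 (-2.34, SE 0.08), Slc9a9 (-1.86, SE 0.11), Slc25a25 (-1.83, SE 0.09) and Slc36a2 (-1.64, SE 0.10). Slc30a4, Slc33a1 and Slc25a25 were highest at 8 h. Slc36a2 and Slc9a9, a sodium/proton exchanger of late endosomes, were lowest at 12 h, although the value of Slc9a9 against M0 at 8 h (-1.26) was not called in all 3 scalings. Both reached the minimum of 5 CPM mainly through M0, so their low values against M0 follow in part from their choice. At M0, Slc25a25 was at 14.5 and 17.4 in wt and 14.6 and 15.1 in Treml4-/- libraries, against 42.0 and 42.0 in wt and 39.6 and 38.0 in Treml4-/- libraries at 8 h and 9.46 and 11.8 in wt and 10.3 and 11.0 in Treml4-/- libraries at 12 h, in CPM. In CPM, Slc9a9 stood at 21.8 and 17.9 in wt and 17.7 and 17.1 in Treml4-/- libraries at M0, at 8.84 and 7.37 in wt and 6.55 and 6.15 in Treml4-/- libraries at 8 h, and at 1.55 and 0.933 in wt and 1.37 and 1.16 in Treml4-/- libraries at 12 h. Of the substrate classes, the lipid and acetyl-CoA carriers had all 5 genes called between the times, 3 higher and 2 lower, and the amino acid carriers had 8 of 23 higher and 5 lower.

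**Figure D4:**
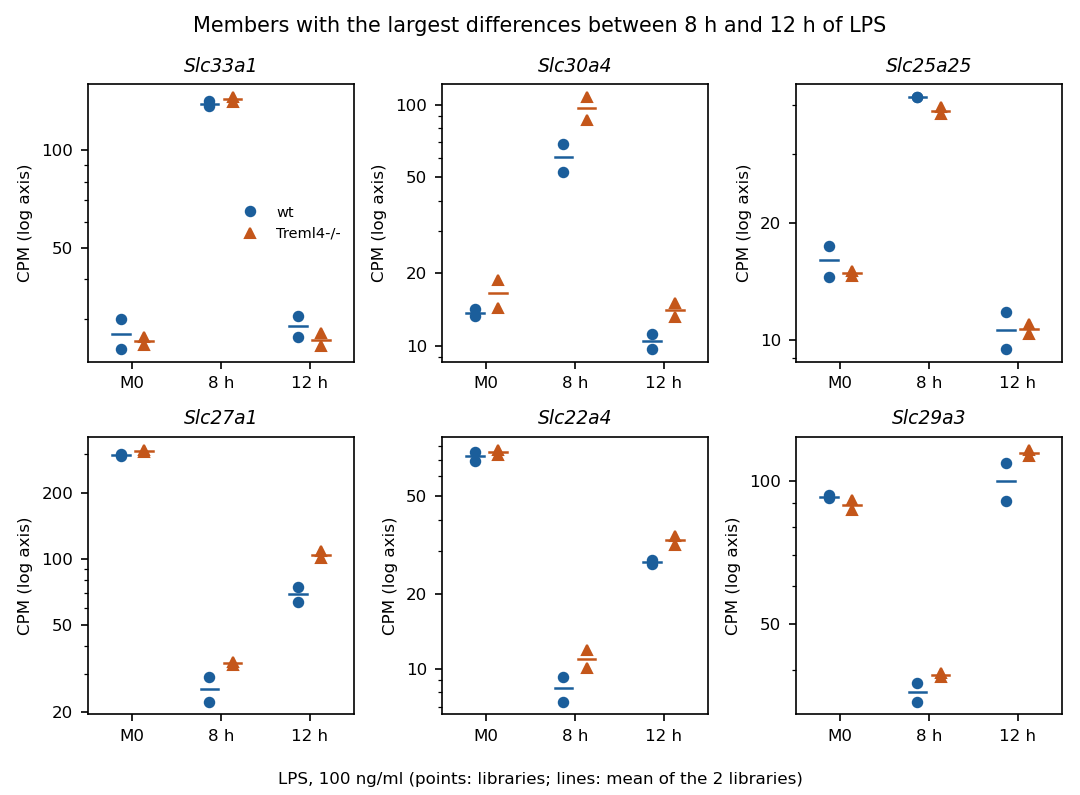
CPM (vertical log axis) of 3 genes that were highest at 8 h (top row) and 3 that were lowest at 8 h (bottom row), at M0, 8 h and 12 h of LPS (horizontal axis), with 1 point per library, circles for wt, triangles for Treml4-/- and a line at the mean of the 2 libraries. Slc33a1 is at 138 CPM or more in the 4 libraries at 8 h and at 30.8 or less in the other 8. At 12 h against M0 the signs of Slc30a4 and Slc25a25 flip with the scaling, Slc33a1 and Slc29a3 were called higher under the other scalings but not at library size, and the fall of Slc29a3 at 8 h was not called in all 3 scalings.

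No carrier passed the thresholds between wt and Treml4-/- cells. With limma, 0 of the 147 were called between wt and Treml4-/- at M0, at 8 h, at 12 h, over the 3 times or in the LPS response by genotype at 8 h or 12 h. Among all genes tested, 0.0414% were called higher and 0.0579% lower in wt at M0, 0.0331% and 0.0579% at 8 h, 0.0496% and 0.0827% at 12 h, and 0.0827% and 0.331% over the 3 times. In the LPS response by genotype, 0% were called higher and 0.00827% lower at each time. The voom test on recovered reads also called 0 in each of these comparisons. At an unadjusted p under 0.05, there were 2 carriers at M0, 29 at 8 h (6 higher and 23 lower in wt), 23 at 12 h (3 and 20) and 34 over the 3 times (5 and 29). The same threshold was passed by 3.35%, 21%, 7.55% and 20.1% of all genes. In the LPS response by genotype, 9 carriers passed it at 8 h and 11 at 12 h, against 6.67% and 3.82% of all genes. These directions hold at library size, and the split by direction over all genes is not given, so it is not read as a trait of the carriers. At 8 h the carrier median was -0.04 at library size, 0.08 with the median of ratios and 0.04 with quantile normalization, against -0.07, 0.03 and 0.02 over all genes. At 12 h the carrier median was -0.10, -0.02 and -0.04, against -0.05, 0.02 and 0.002 over all genes. The sign of 30 carriers flipped with the scaling at 8 h, of 28 at 12 h and of 36 over the 3 times. Single libraries moved the count of calls, which was 1 at M0 without wt M0 replicate 1, 5 at 8 h without Treml4-/- M1-8 h replicate 1, 2 at 12 h without wt M1-12 h replicate 1, and 2 over the 3 times without wt M0 replicate 1 or without Treml4-/- M1-8 h replicate 1.

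The lowest p at 8 h was that of Slc4a7, the sodium bicarbonate importer that fell under LPS in both genotypes. For Slc4a7, the libraries gave 67.5 and 61.7 in wt and 63.1 and 75.1 in Treml4-/- libraries at M0, 9.35 and 10.1 in wt and 17.5 and 17.7 in Treml4-/- libraries at 8 h, and 3.26 and 3.79 in wt and 5.35 and 4.25 in Treml4-/- libraries at 12 h, in CPM. At 8 h both Treml4-/- libraries were above both wt libraries, and the difference, wt minus Treml4-/-, was -0.80 ± 0.13 (SE) with an adjusted p of 0.0735 (limma). Over the 3 times it was -0.41 ± 0.07 (SE) (adjusted p = 0.0386), under the minimum fold change, and the difference in the LPS response at 8 h was -0.70 ± 0.18 (SE) (adjusted p = 0.729). Slc27a1, the fatty acid importer, followed over the 3 times with -0.35 ± 0.07 (SE) (adjusted p = 0.0455), also under the minimum, and had the lowest p at 12 h (-0.59, SE 0.12, adjusted p = 0.128). Its Treml4-/- libraries were above its wt libraries at each time point. Every p over the 3 times takes the 6 libraries of a genotype as independent. The labels number 2 biological replicates per genotype, each present at all 3 times, so such a p can be too small.

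Slc15a2, on chr16:36750177-36784962 (reverse strand), entered the list through the library Treml4-/- M1-8 h replicate 2, so its values are given as a description of a wide spread. Slc15a2 was found at 0.791 and 0.393 in wt and 0.978 and 3.22 in Treml4-/- libraries at M0, 1.76 and 0.26 in wt and 6.05 and 45.5 in Treml4-/- libraries at 8 h, and 0.556 and 0.179 in wt and 2.48 and 9.15 in Treml4-/- libraries at 12 h, each in CPM. Treml4-/- libraries were above the wt libraries of the same time throughout, and replicate 2 was above replicate 1 in each Treml4-/- group and below it in each wt group. The difference was -3.28 at 8 h and -2.09 over the 3 times, and neither was called.

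At 8 h, Slc35a3, a UDP-N-acetylglucosamine carrier (-0.65, SE 0.16), the zinc carrier Slc30a4 (-0.67, SE 0.17) and Slc16a7 (-0.46, SE 0.13) were also lower in wt, with adjusted p of 0.133, 0.133 and 0.155. At 12 h, Slc4a11 was higher in wt (0.74, SE 0.16, adjusted p = 0.142), and the differences of Slc36a1, Slc20a1 and Slc37a2 were -0.50, -0.62 and -0.59 (adjusted p = 0.142, 0.177 and 0.228). At M0, Slc6a9 (-0.34, a glycine importer) and Slc2a6 (0.38) had the lowest p, 0.0288 and 0.0379 unadjusted, and both an adjusted p of 1, followed by Slc31a2 (0.19), Slc39a4 (-0.29) and Slc9a7 (0.25). Slc25a37, Slc17a5, Slc8a1 and Slc26a11 after Slc4a7 had the lowest p in the LPS response at 8 h by genotype, with -0.93, -0.44, -0.43 and -0.37, none with an adjusted p under 0.729. In that at 12 h they were Slc36a1 (-0.61), Slc16a10 (-0.49), Slc4a11 (0.77), Slc26a11 (-0.46) and Slc27a1 (-0.53), none with an adjusted p under 0.999. A p that misses the threshold does not show that the genotypes were alike.

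**Figure D5:**
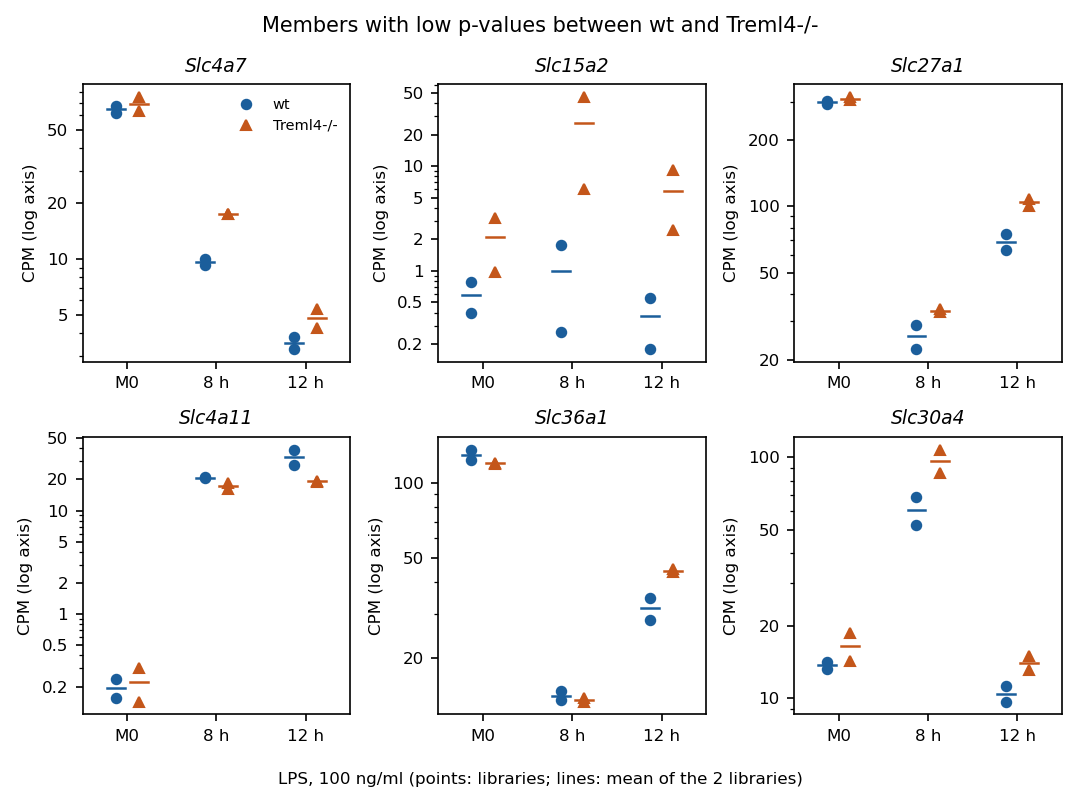
CPM (vertical log axis) of 6 genes with low p-values between the genotypes at M0, 8 h and 12 h of LPS (horizontal axis), with 1 point per library, circles for wt, triangles for Treml4-/- and a line at the mean of the 2 libraries. Slc4a7 at 8 h is at 9.35 and 10.1 in wt and 17.5 and 17.7 in Treml4-/- libraries, and none of the differences passed the thresholds.

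Transporters named outside the Slc scheme had shares of calls near those of all genes at 8 h. Of 84 such genes in the table, from the MFSD, sideroflexin and ABC families among others, 72 were tested. At 8 h, 13 were called higher and 46 lower (18.1% and 63.9%, beside 17.1% and 59.8% of all genes tested, median -1.07). At 12 h, 10 were higher and 41 lower, beside 16.3% and 60.3% of all genes. With the median of ratios the split was 24 higher and 31 lower at 8 h and 25 higher and 27 lower at 12 h, and with quantile normalization 17 higher and 33 lower and 20 higher and 33 lower. Of the Slc genes under the minimum of 5 CPM, 43 were tested. At library size 4 were higher and 31 lower at 8 h, and 3 and 30 at 12 h, beside the same shares of all genes. With the median of ratios there were 8 higher and 22 lower at 8 h and 5 and 21 at 12 h. Quantile normalization gave 10 and 19 at 8 h and 10 and 17 at 12 h. Over all 12086 genes, the median of ratios gave 3762 higher and 3791 lower at 8 h and 3947 and 3942 at 12 h. Quantile normalization gave 3362 and 4342 at 8 h and 3594 and 4338 at 12 h over all genes. None of either list was called between the genotypes with limma, while 13 and 4 of them had an unadjusted p under 0.05 at 8 h, beside 21% of all genes. Of all Slc symbols, 78 had no read in any library.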

How the data were processed

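RNA was taken from BMDM of wt and Treml4-/- mice, grown in M-CSF, after vehicle or LPS, and sequenced as stranded poly(A) libraries with paired reads of 126 bp. According to the submitters' notes and the study's methods, the authors aligned reads with STAR to mm10, counted them per gene with Subread, and deposited 1 table of log2 CPM values with a prior count. The values gave whole reads back (within 0.01 of a read) with a prior count of 0.25, which was removed. Depth was 48008751 to 58500792 reads, so that 3 reads stand for 0.0513 to 0.0625 CPM. Replicates differed by more than sampling noise. Strand setting, tool versions and annotation of the counting are not given in the sources used here.

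The 12086 genes that reached 1 CPM in 2 or more libraries were tested in limma 3.58.1 (R 4.3.3, trend) on log2(CPM + 1), with 1 mean for each of the 6 groups, Benjamini-Hochberg adjustment over all of them, and calls at an adjusted p under 0.05 and 1.4-fold. Genotype differences are wt minus Treml4-/-. The procedure was tested on simulated data. Gene positions, exon lengths and overlaps came from GENCODE M21 (GRCm38), and start-site windows from RefSeq (GRCm38.p6). Python 3.11.15, numpy 2.4.6, pandas 2.3.3 and matplotlib 3.10.9 were used. Alternatives were the pseudocount (0.1 or 5), the filter (none or 5 CPM), scaling (median of ratios or quantile), no trend, only the libraries compared, no minimum fold change, voom on recovered reads, replicate blocks, and each library left out. Blocks within time points, straight and crossed, were added after seeing the data.

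The 147 carriers and all lists were chosen with earlier results of these data known. Named were the 10 highest per kb, up to 3 called genes per substrate class and direction at 8 h, the 5 largest in each direction between 12 h and 8 h, the 5 lowest p in each genotype contrast, and the 3 genes on each side of the level minimum. Genes named beyond this rule are said to be so.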

Additional observations from a re-analysis of the deposited data

How the results depend on the processing

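The counts of carriers called under LPS stayed within 1.5 times of 119 at 8 h and 115 at 12 h under every alternative, with 115 to 120 and 113 to 116 when 1 library was left out. Between 12 h and 8 h, 101 were called with no minimum fold change in place of 59, and 58 to 62 without 1 library. Over the 3 times, the genotype count of 0 became 1 (Slc15a2) with a pseudocount of 0.1, the median of ratios or the replicate block, and 2 with no minimum fold change. Leaving out 1 library gave 0 to 1 genotype calls at M0, 0 to 5 at 8 h, 0 to 2 at 12 h and 0 to 2 over the 3 times, and 0 in the LPS response by genotype. Same-numbered wt and Treml4-/- libraries had correlated deviations of -0.264 at M0, 0.297 at 8 h and 0.0563 at 12 h, and libraries of 1 genotype at different times -0.272 to 0.462, so the numbers were not taken as pairs. A replicate block by culture, possible within genotype only, left 119, 115 and 60 calls in the LPS comparisons, and crossing the pairs at M0 in a block gave 7 genotype calls at 8 h, 1 at 12 h and 1 over the 3 times. At 8 h against M0 the sign turned for Slc6a6 (0.78 with the median of ratios, and -0.058 to 0.014 when 1 library was left out, positive without wt M1-8 h replicate 1 or wt M0 replicate 2). With the median of ratios it turned for Slc25a5 (0.33), Slc13a3 (0.21), Slc20a1 (0.00397), Slc41a1 (0.12), Slc9a3r1 (0.21) and Slc35d1 (0.47), and with quantile normalization for Slc10a3 (0.069), Slc16a7 (0.097), Slc13a3 (0.31), Slc41a1 (0.29) and Slc35d1 (0.74). The cause was not tested beyond the change of scale. Among single genes, 27 values lost and 26 gained a call. At these depths 3 reads lie far below 1 CPM, and the 2 libraries per group limit the genotype comparisons.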
